A study of Mus musculus with 4 samples.

Results

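Cst7, Itgax, Lilrb4a and Csf1 are 4 of the 397 genes that were counted in single brain cells of 5XFAD mice, and their rows were followed in every cell with 40 or more genes and no more reads than the upper limit that the study's methods give (the deepest cell kept had 59271 reads and the shallowest cell left out for its reads had 59360). The cells came from 4 male mice aged 9 months, of which 2 lacked Abi3 (Abi3-/-) and 2 had it (Abi3+/+). All 4 mice, the Abi3+/+ controls included, carried the 5XFAD transgene, which is driven in neurons and leads to amyloid plaques, and no mouse without the transgene is among them. The right hemisphere without cerebellum and olfactory bulb was dissociated in the cold, myelin was removed, and 1 library was made per mouse with a targeted panel of immune genes, so mouse and library cannot be told apart. Abi3 itself is not on the panel, and the genotypes rest on the labels.

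The 4 genes are known as part of the program that microglia switch on around amyloid plaques. In that program, microglia lose homeostatic genes, first gain genes such as Apoe, and then, through the lipid receptor Trem2, gain lysosomal, adhesion and lipid-handling genes. Cst7 encodes cystatin F, an inhibitor of lysosomal cysteine proteases that T and NK cells also make. Itgax encodes CD11c, the integrin alpha chain that pairs with the beta chain Itgb2 and is also the classical marker of dendritic cells. Lilrb4a encodes an inhibitory immunoglobulin-like receptor of myeloid cells with cytoplasmic tyrosine motifs. Csf1 encodes a ligand of Csf1r, the receptor on which microglia depend for survival.

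The tables held 21172 cells, and 13820 cells were kept, 2321 and 4499 from the Abi3-/- mice and 3796 and 3204 from the Abi3+/+ mice. Total reads per mouse ranged from 87117727 to 150756771, and the median reads per kept cell from 19647.5 to 24283. Between 6 and 18 cell labels were shared by each pair of libraries. Cells were clustered without the 4 genes, and 10 of the 16 clusters were microglia-like by their markers, which included Trem2, C1qa and Cx3cr1. Nearly all microglia-like cells had a read of Trem2, 12642 of 12656, and these cells are called Trem2-positive microglia below. The values of each mouse are given in the order Abi3-/- 1, Abi3-/- 2, Abi3+/+ 1 and Abi3+/+ 2. Values are reads and not molecules. A Trem2-positive microglia that had the gene at all had at least 13 reads of Cst7, 10 of Itgax, 9 of Lilrb4a and 7 of Csf1, so "detected" means at least 1 read and in practice many. Levels are not compared between genes, because how readily the panel detects each of them was not measured.

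In the GRCm38.p6 annotation of RefSeq, the build that the submitters' notes name as mm10, Cst7 lies on chromosome 2 from 150570415 to 150578944, and Itgax on chromosome 7 from 128129526 to 128150657, both on the plus strand. Csf1 lies on chromosome 3 from 107741048 to 107760469 on the minus strand, and Lilrb4a on chromosome 10 from 51490898 to 51496613, next to its paralog Lilr4b (Lilrb4b in GENCODE) at 51480612 to 51486329. Of the 30-base runs of the longest Lilrb4a transcript, 44.5% were also found in transcripts of that paralog. Reads of the paralog counted as Lilrb4a could not be separated here, so every Lilrb4a value is uncertain in this respect. The 250 bases before a RefSeq start are shown for the 3 genes with an entry (the outer start of the gene for Cst7 and Csf1, and for Itgax position 128129550, which lies 24 bases inside the gene), because the 4 genes were detected together and these are the stretches where their shared letters would be sought. Capitals mark the ETS core GGAAGT on either strand and the AP-1 motif TGAGTCA, and each sequence runs 5′ to 3′ on the strand of its gene.
Cst7, chr2:150570165-150570414, plus strand: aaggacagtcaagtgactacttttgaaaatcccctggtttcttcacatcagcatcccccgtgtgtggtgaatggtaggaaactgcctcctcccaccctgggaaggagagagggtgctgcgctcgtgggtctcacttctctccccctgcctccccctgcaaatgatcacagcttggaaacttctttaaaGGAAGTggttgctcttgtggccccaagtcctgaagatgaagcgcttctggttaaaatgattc
Itgax, chr7:128129300-128129549, plus strand: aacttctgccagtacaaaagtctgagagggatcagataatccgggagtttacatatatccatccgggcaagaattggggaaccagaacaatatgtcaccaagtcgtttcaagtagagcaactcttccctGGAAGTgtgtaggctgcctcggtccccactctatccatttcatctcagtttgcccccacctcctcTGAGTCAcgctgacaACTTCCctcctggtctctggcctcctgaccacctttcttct
Csf1, chr3:107760470-107760719, minus strand: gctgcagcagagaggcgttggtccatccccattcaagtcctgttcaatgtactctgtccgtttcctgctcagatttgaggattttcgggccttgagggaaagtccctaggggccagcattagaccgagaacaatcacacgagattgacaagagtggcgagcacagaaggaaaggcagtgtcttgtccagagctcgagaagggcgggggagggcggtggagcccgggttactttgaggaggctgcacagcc
Cst7 held 1 ETS core, 62 to 57 bases before the start, and Itgax held 2, 121 to 116 bases before the start and, on the other strand, 41 to 36 bases before it. Itgax also held the AP-1 motif 56 to 50 bases before the start, whereas the Csf1 window held neither motif. The ETS core was found in 19.7% and the AP-1 motif in 4.46% of 32851 RefSeq windows of this length, both strands searched. The E-box CACGTG (6.02% of windows) and the TATA box TATAAA (12.4%) were also searched and were in none of the 3. These are matches of letters and not sites of binding.

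Among Trem2-positive microglia, Cst7 was the gene of the 4 detected in most cells, followed by Itgax, and then by Lilrb4a and Csf1. Cst7 was detected in 38.8%, 44.6%, 24.7% and 27.3% of the cells of the 4 mice (33.9% ± 9.43, SD, n = 4). Itgax was detected in 28.2%, 33.2%, 16.3% and 27.2% (26.2% ± 7.11, SD, n = 4). Lilrb4a was detected in 7.38%, 17.4%, 7.98% and 10.6% (10.8% ± 4.6, SD, n = 4), and Csf1 in 11.5%, 11.5%, 8.20% and 5.86% (9.26% ± 2.75, SD, n = 4). Detection at 50 or more reads gave a mean Csf1 share of 3.61%, and a mean of 16.9% had Lilrb4a with no cell filter. Cst7 led Itgax in every mouse, although the second Abi3+/+ mouse had them at 27.3% and 27.2%, and Lilrb4a and Csf1 changed places between mice. Of the 12642 cells, 6634 had none of the 4 genes, 3215 had 1, 1611 had 2, 901 had 3 and 281 had all 4. Cells with more of the 4 genes were also deeper. From 0 to 4 genes, the median reads per cell went from 21593 to 41808, from 16835 to 43347, from 18248.5 to 40862 and from 20912 to 41690.5. From the lowest to the highest quintile of reads per cell within a mouse, the mean share of cells with Cst7 went from 20.8% to 68.5%, that with Itgax from 13% to 53.9%, that with Lilrb4a from 4.51% to 30.1%, and that with Csf1 from 3.93% to 21.8%.

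**Figure D1:**
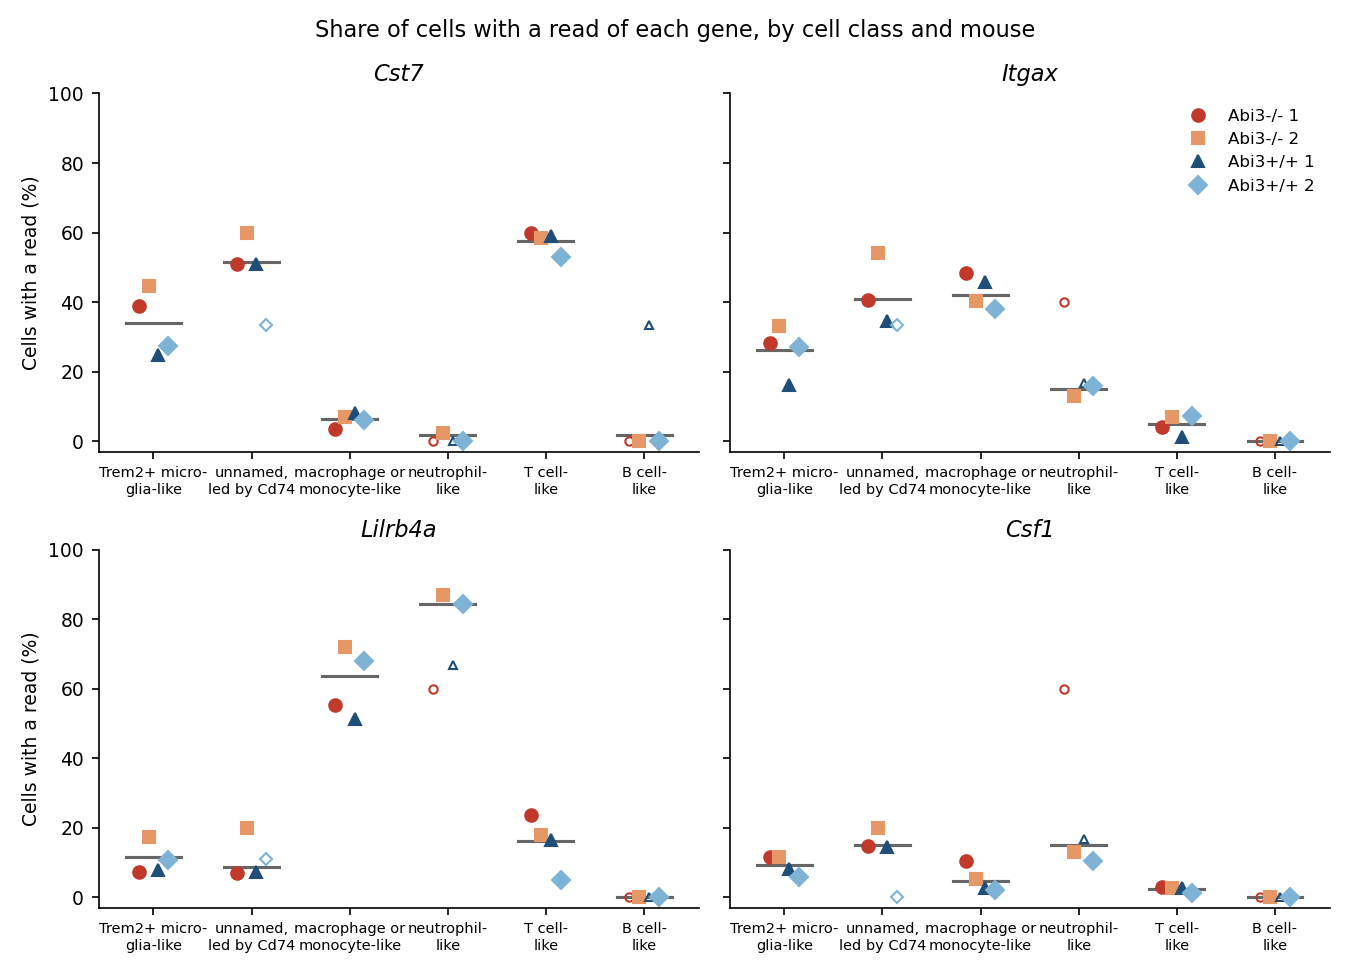
Share of cells with at least 1 read (y axis, %) of each of the 4 genes in 6 cell classes (x axis). Each point is 1 mouse (small open points rest on fewer than 10 cells) and the grey line is the share over the cells of all mice. Cst7 was detected in 57.6% of T cell-like cells and 6.36% of macrophage or monocyte-like cells, and Lilrb4a in 84.2% of neutrophil-like cells.

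The 4 genes were detected in the same cells more often than their separate shares give at like depth. To form the expected number of cells with both genes of a pair, the shares were multiplied within quintiles of reads per cell of each mouse. The ratio of observed to expected was above 1 for all 6 pairs in all 4 mice, as it was for 43.8% of the 9316 pairs of genes described below. Its mean was highest for Lilrb4a with Csf1, at 2.24, 1.48, 2.31 and 1.75 in the 4 mice (1.94 ± 0.40, SD, n = 4). The mean was lowest for Cst7 with Itgax, at 1.17, 1.18, 1.65 and 1.48 (1.37 ± 0.24). Single mice differed, as Cst7 with Lilrb4a was highest in the second Abi3+/+ mouse (1.88). Cst7 with Itgax was not lowest in either Abi3+/+ mouse. Cst7 with Csf1 had 1.645 against 1.653 in the first, and Itgax with Csf1 1.46 in the second. The pairs between had mean ratios of 1.71 for Cst7 with Lilrb4a, 1.61 for Itgax with Lilrb4a, 1.47 for Itgax with Csf1 and 1.42 for Cst7 with Csf1. Over all pairs of the 137 genes (9316 pairs) that were detected in 5% to 95% of the cells of every mouse, the median of the mean ratio was 1.02, and the limits that left out the lowest and the highest 5% of pairs were 0.905 and 1.11. The mean ratios of all 6 pairs lay above these limits. A ratio has less room above 1 where a gene is detected in more cells. The 9316 pairs include genes in up to 95% of cells, and the 4 genes were in far fewer. Neither these limits nor the ranking of the 6 pairs was thus taken at like shares. Quintiles hold depth only in part, and quintiles by the number of other genes detected gave higher ratios for every pair, of up to 3.05 for Lilrb4a with Csf1. With no cell filter the ratios of all 6 pairs were lower, from 1.17 for Cst7 with Itgax to 1.37 for Lilrb4a with Csf1.

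Most cells with Lilrb4a also had Cst7. Of the cells with Lilrb4a, 86.4%, 85.9%, 83.5% and 81.4% also had Cst7, against 53.3%, 63.4%, 42.0% and 43.2% expected at like depth. In the other direction, a mean of 27.1% of the cells with Cst7 had Lilrb4a, against 16.3% expected at like depth. Cells with Lilrb4a but without any of the other 3 genes numbered 124, whereas 1705 cells had Cst7 alone, 1124 had Itgax alone and 262 had Csf1 alone. For Itgax and Cst7, a mean of 59.7% of the cells with Itgax had Cst7 (44.5% expected) and 46.3% of the cells with Cst7 had Itgax (34.5% expected). Csf1 was found mostly in cells that also had others of the 4 genes, with Cst7 in 65.6%, Itgax in 53.2% and Lilrb4a in 33.0% of its cells, against 47.1%, 37.1% and 18.1% expected at like depth.

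**Figure D2:**
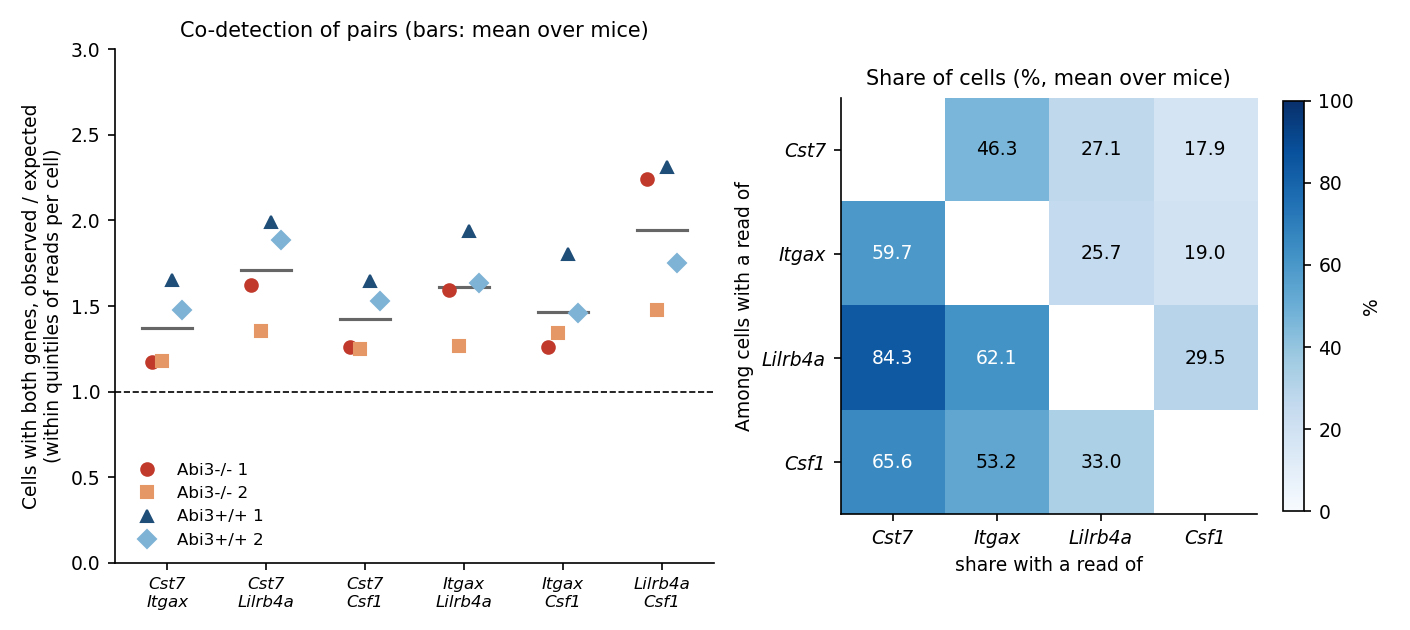
Left, cells with both genes of each pair over the number expected at like depth (y axis), with 1 point per mouse, a bar at the mean and a dashed line at 1. Right, mean share (%) of cells with the column gene among cells with the row gene, of which the highest is 84.3% for Cst7 among cells with Lilrb4a.

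An order of detection was read from which sets of genes occurred, as cells were measured once and no time is known. Among cells with 2 of the 4 genes, Cst7 with Itgax was the most frequent set in every mouse (952 cells). Over all mice, Cst7 with Lilrb4a (323) and Cst7 with Csf1 (165) followed. Cst7 with Csf1 came second in the first Abi3-/- mouse, at 44 cells against 29 for Cst7 with Lilrb4a. The 3 pairs without Cst7 came to 86, 69 and 16 cells. Among cells with 3 genes, Cst7, Itgax and Lilrb4a were together in 541 cells and Cst7, Itgax and Csf1 in 249, and the 2 sets that lacked Itgax or Cst7 in 93 and 18. In the first Abi3-/- mouse the set with Csf1 was as frequent as that with Lilrb4a, 48 against 46 cells. Of the 24 possible orders, Cst7, Itgax, Lilrb4a, Csf1 held most cells. Of the cells with 1 to 3 genes, 56.3%, 57.4%, 55.1% and 53.2% had a set that this order allows (55.5% ± 1.78, SD, n = 4). It was the first of the 24 in 2 mice and the second in the other 2. In the first Abi3-/- mouse, the order with Csf1 before Lilrb4a came first, at 56.5%, and in the second Abi3+/+ mouse the order with Itgax before Cst7 did, at 56.4%. Their means were 51.0% ± 4.75 and 45.6% ± 7.90. Which of Cst7 and Itgax came first, and which of Lilrb4a and Csf1 came last, thus differed between mice. The leading order is also the order of the mean shares of the 4 genes, and it was picked from the same cells. Of the cells scored, 3215 had only 1 gene. How many cells the separate shares alone would place in this order was not computed. How readily the panel detects each gene was not measured either, so the order is a description only.

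**Figure D3:**
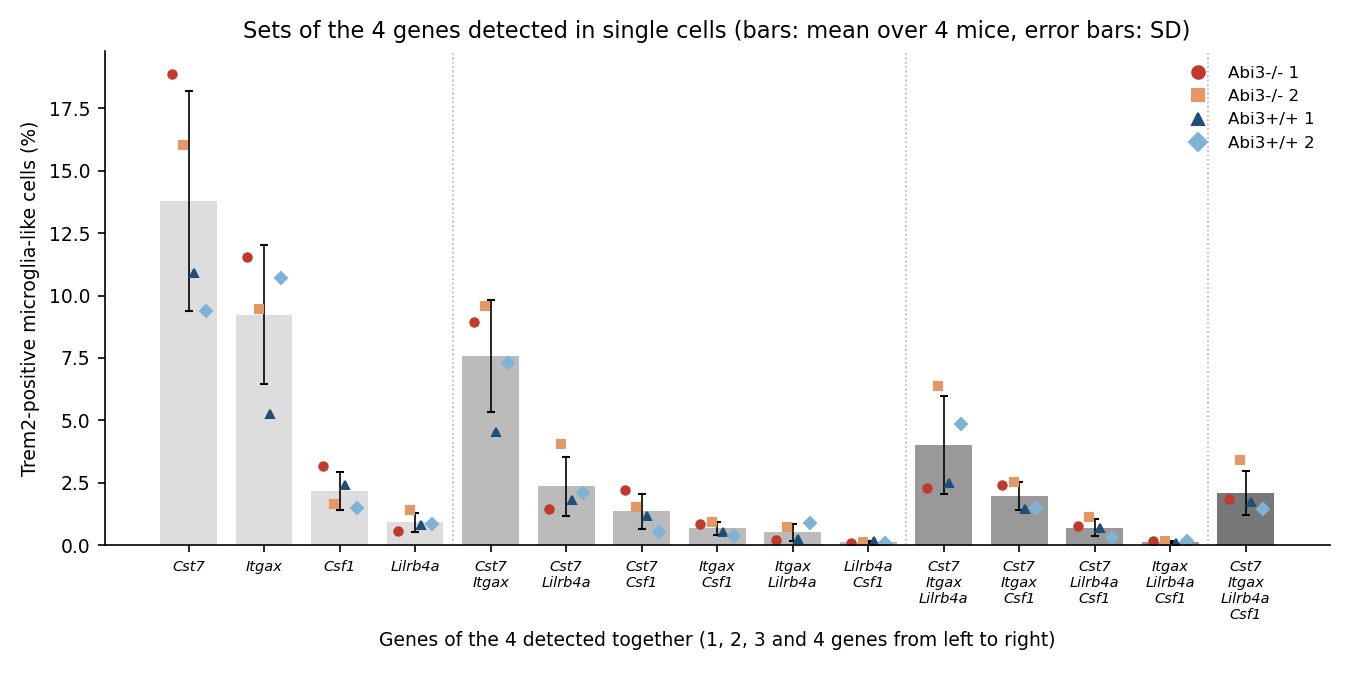
Share of Trem2-positive microglia (y axis, %) with each set of the 4 genes (x axis). Bars are means over 4 mice, error bars are SD and points are mice. Cst7 alone is the most frequent set with a mean of 13.8%, and Cst7 with Itgax follows Itgax alone.

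Cells with Cst7 had more of its reads where more of the other 3 genes were detected, as a description. With 0, 1, 2 and 3 of the others, the median number of Cst7 reads was 85.9 ± 4.21, 299 ± 139, 649 ± 243 and 822 ± 269 (mean and SD of the medians of 4 mice). These cells also differed in depth. Per 10000 reads, the mean ln(reads per 10000 + 1) of Cst7 was 3.93, 4.53, 5.01 and 5.14. Itgax moved less, from a median of 69.3 to 193 reads and from 3.38 to 3.86 on the same scale. For Lilrb4a and Csf1, reads went from 74.8 to 102 and from 35.4 to 50.9, whereas the level per 10000 reads went from 3.61 to 3.32 and from 2.84 to 2.6. Per 10000 reads, the level was thus higher beside more of the others for Cst7 and Itgax, and not for Lilrb4a and Csf1.

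**Figure D4:**
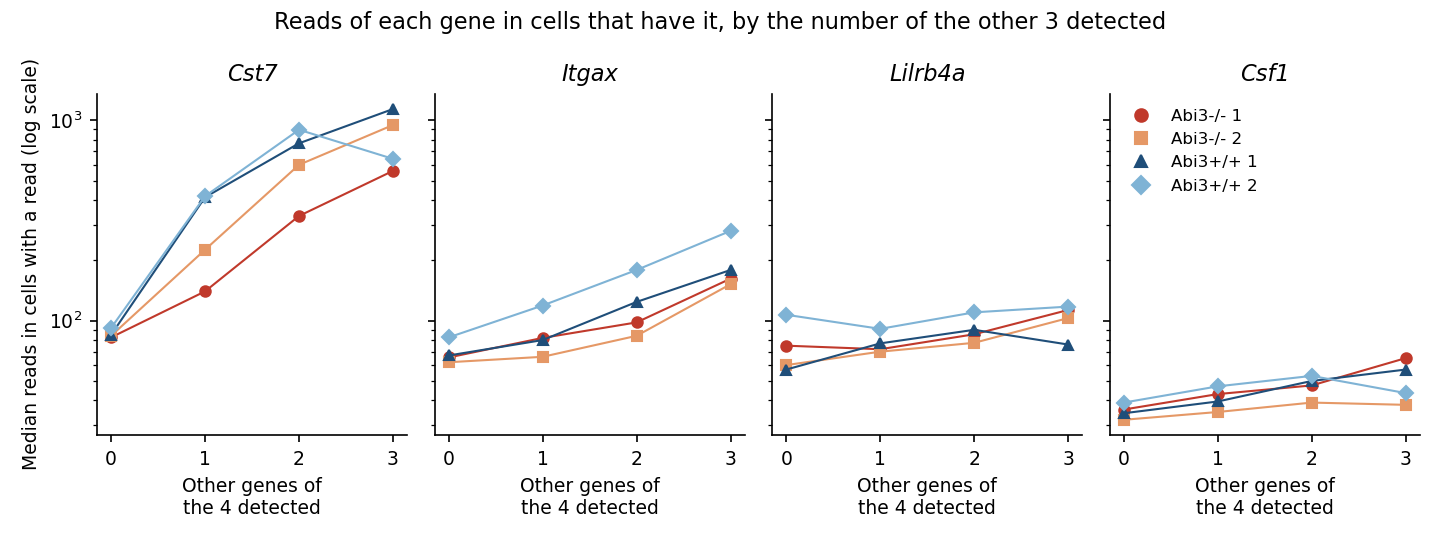
Median reads (y axis, log scale) of each gene in the Trem2-positive microglia that had it, by the number of the other 3 genes detected (x axis), with 1 line per mouse. Cst7 goes from 82.5 to 92 reads with none of the others to 559 to 1138 with all 3, although in the second Abi3+/+ mouse the last step goes down, from 897 to 642.

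The clusters that held the cells with several of the 4 genes were found without these genes. Cluster 4 (1626 cells, median 35822.5 reads), led by Cxcl10, Ccl4, Cd72, Ccl3 and Apoe beside the 4 genes, had Cst7 in 85.4%, Itgax in 64.0%, Lilrb4a in 54.8% and Csf1 in 31.1% of its cells. Cluster 6 (1065 cells, median 19622 reads), led by Apoe, Spp1 and Lgals3, had Cst7 in 89.1%, Itgax in 48.6%, Lilrb4a in 34.6% and Csf1 in 16.3%. Cluster 6, although shallower, thus had Cst7 in at least as large a share of cells as cluster 4. Clusters 0, led by Fosb, and 5, led by Fosb and Junb, had the lowest shares among the microglia-like clusters, with Cst7 in 8.52% and 10.1% and Lilrb4a in 0.596% and 0.697%. In cluster 1, led by Ccr1, Cst7 was in 36.2%, Itgax in 30.0% and Lilrb4a in only 3.73% of cells. The cluster of cells with cell cycle genes (101 cells, led by Top2a and Mki67) had Cst7 in 41.6% and Csf1 in 3.96%.

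Genes whose level was most like that of the 4 genes across single microglia were taken by the mean within-mouse Pearson correlation over 264 genes, as a description. For Cst7 these were Apoe (r = 0.51), the lysosomal protease Ctsd (0.46), the lysozyme gene Lyz2 (0.43), Lilrb4a (0.41) and Itgax (0.37). For Itgax they were Cst7, Apoe (0.30), Lilrb4a (0.28), Lyz2 (0.27) and Ctsd (0.24). For Lilrb4a they were Cst7, the galectin gene Lgals3 (0.40), Apoe (0.34), Itgax and the phosphatidylserine-binding annexin gene Anxa5 (0.27). For Csf1 they were Cst7 (0.23), Lilrb4a (0.21), Itgax (0.19), the chemokine gene Ccl3 (0.17) and Apoe (0.16). Each of the 4 genes thus stood among the 5 nearest genes of at least 1 other, except Csf1, which stood at place 8 for Itgax and at place 14 for Cst7 and for Lilrb4a. The cells of a mouse share its library and its depth.

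Reads were then summed per mouse over the cells with and without each gene, and the sums were compared within mice with the mouse as a block (quasi-likelihood test of edgeR, p-values adjusted by Benjamini-Hochberg over every gene tested). The 4 genes were left out of these tables. With Cst7, 59 genes were higher (21.5%) and 55 lower (20.0%) of 275 tested, 41.5% called in all. With Itgax, 43 were higher (15.7%) and 54 lower (19.7%) of 274, 35.4% in all. With Lilrb4a, 57 were higher (20.8%) and 75 lower (27.4%) of 274, 48.2% in all. With Csf1, 42 were higher (15.5%) and 45 lower (16.6%) of 271, 32.1% in all. Ctsd alone stood at a mean of 374596 CPM (reads of the gene per 1000000 summed reads, TMM-scaled) in cells with Cst7 and 197510 CPM in cells without it, so the balance of the counts depends on the scaling. With library size alone in place of TMM normalization, the counts were 40 higher (14.5%) and 122 lower (44.4%) for Cst7, 36 and 94 for Itgax (47.4% in all), 43 and 104 for Lilrb4a (53.6% in all), and 34 and 78 for Csf1 (41.3% in all). DESeq2 called 28.0% of the genes higher and 28.4% lower with Cst7, 22.3% and 23.7% with Itgax, 27.4% and 29.2% with Lilrb4a, and 20.7% and 23.2% with Csf1. With library size alone, the median log2 fold change of all genes tested was between -0.59 and -0.35, against between -0.28 and -0.10 with TMM. The counts also moved with single mice. Without the first or the second Abi3+/+ mouse, 32 or 31 genes were lower with Cst7, and 26 or 21 were higher with Itgax, as were 25 without the second Abi3-/- mouse. Without the second Abi3+/+ mouse, 14 were lower with Itgax.

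All 15 genes of the disease-associated list were higher in cells with Cst7, and the same held for Itgax, for Lilrb4a and for Csf1, except that 14 of 15 were called for Csf1 with library size alone. Their median log2 fold changes were 1.36, 0.89, 1.30 and 0.87, whereas those of all genes tested were -0.10, -0.15, -0.28 and -0.16. The list holds genes chosen with this program known, so its direction is no independent evidence. Apoe, which carries lipids between cells, had a mean of 10496 CPM with Cst7 and 1849 CPM without it, and the log2 differences of the mice were 1.66, 2.65, 3.86 and 3.24 (log2 fold change 2.87 ± 0.34, SE, adjusted p = 0.00122, edgeR). Apoe was also higher in cells with Lilrb4a (2.39 ± 0.13, adjusted p = 6.75e-05), with Itgax (1.68 ± 0.24, adjusted p = 0.00542) and with Csf1 (1.26 ± 0.13, adjusted p = 0.000407). Lgals3, a marker of phagocytic microglia, had 1283 CPM in cells with Lilrb4a and 52.7 CPM in cells without it (4.73 ± 0.27, adjusted p = 6.75e-05), and was higher with Csf1 by only 1.71 ± 0.17 (adjusted p = 0.000311). Spp1, the osteopontin gene, was higher by 2.92 with Cst7, 3.21 with Itgax, 3.48 with Lilrb4a and 2.75 with Csf1. The chemokine genes Ccl3 and Ccl4 were higher by 1.27 and 1.60 with Lilrb4a and by 1.25 and 1.51 with Csf1, against 0.91 and 0.85 with Cst7 and 0.64 and 0.74 with Itgax. Trem2 itself was higher by 0.65, 0.36, 0.55 and 0.37. Its call with Itgax was lost without any single mouse but the first Abi3-/- (adjusted p from 0.0522 to 0.139), and that with Csf1 without the second mouse of either genotype (0.0801 and 0.0637) and with library size alone (0.0550). The Ccl3 call with Itgax was lost without the second Abi3-/- mouse (0.0551). Whether these folds differ between the 4 genes was not tested, and the cells with and without different genes overlap.

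Of the 6 homeostatic genes, 5 were lower in cells with each of the 4 genes, under all 3 scalings run, and Tgfb1 did not pass in any. Of all genes tested, 20.0%, 19.7%, 27.4% and 16.6% were lower with Cst7, Itgax, Lilrb4a and Csf1 (TMM). These shares were 44.4%, 34.3%, 38.0% and 28.8% with library size alone, and 28.4%, 23.7%, 29.2% and 23.2% with DESeq2. Selplg, the P-selectin ligand gene, had a log2 fold change of -1.33 ± 0.12 with Lilrb4a (SE, adjusted p = 0.000184, edgeR) and of -0.58, -0.62 and -0.65 with Cst7, Itgax and Csf1. The chemokine receptor gene Cx3cr1 had fold changes of -0.87 with Lilrb4a and of -0.56 with Cst7. The Selplg call with Cst7 was lost without the second Abi3+/+ mouse (adjusted p = 0.0508). Immediate early genes moved with them, beside the same shares of all genes tested. With TMM, 6 of 6 were lower with Cst7 and with Lilrb4a and 5 of 6 with Itgax and with Csf1 (Ier3 did not pass). With library size alone, 6 of 6 were lower with each of the 4 genes. DESeq2 called 6 lower with Cst7 and 5 with Itgax, with Lilrb4a and with Csf1. Egr1, which is induced within minutes of stimulation, went from 18197 CPM without Lilrb4a to 5935 CPM with it (log2 fold change -1.57, adjusted p = 0.000117). Tissue handling also induces these genes, and its part was not tested.

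**Figure D5:**
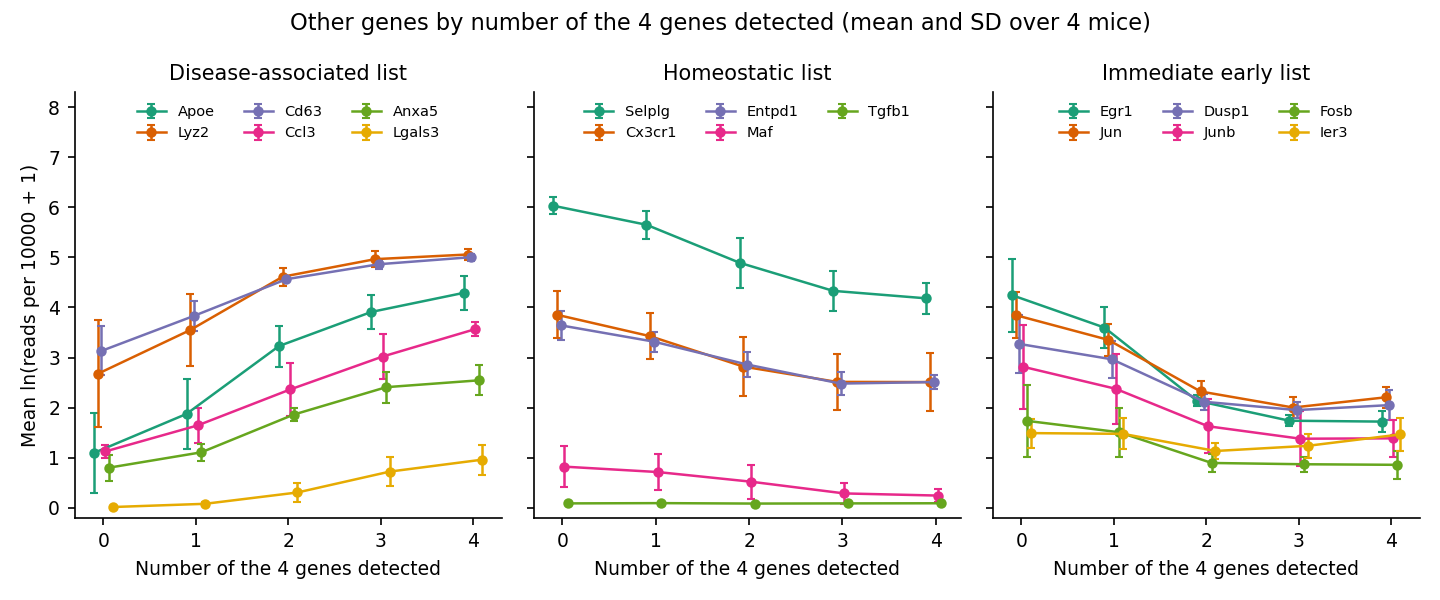
Mean ln(reads per 10000 + 1) (y axis) of genes from 3 lists in Trem2-positive microglia with 0 to 4 of the 4 genes detected (x axis), with SD over 4 mice. Apoe goes from 1.10 with none of the 4 genes to 4.29 with all, Selplg from 6.03 to 4.18, and Egr1 from 4.24 to 1.72, whereas Tgfb1 stays at 0.09.

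Class II antigen presentation genes were among those higher with the 4 genes. Cd74, the invariant chain, was higher with each of them (1.80, 1.21, 1.79 and 1.14), and so was H2-Ab1 (1.64, 1.02, 1.45 and 0.96). Of the 5 genes of the list, 3 were higher with Cst7, 4 with Itgax, 4 with Lilrb4a and 2 with Csf1. Of all genes tested, 21.5%, 15.7%, 20.8% and 15.5% were higher, and 5 genes are few to set against these shares. H2-DMb2 was lower with Lilrb4a (-1.0 ± 0.26, adjusted p = 0.0168, and 0.0547 or 0.0525 without the second Abi3-/- or the second Abi3+/+ mouse) and 1 gene of the list was lower with Cst7 under library size alone. Of the 5 genes of the interferon list, 2 were higher and 1 lower with Cst7, 1 was higher with Itgax, 3 with Lilrb4a and 4 with Csf1 (edgeR), and with library size alone 1 was higher and 1 lower with both Cst7 and Itgax and 3 were higher with both Lilrb4a and Csf1. Over all genes tested edgeR called 41.5%, 35.4%, 48.2% and 32.1% in either direction. Taken in either direction, the interferon counts with Cst7, Itgax and Lilrb4a lie near these shares. So do the class II counts with Cst7 and Csf1, and neither list was tested against the shares. The transmembrane protein gene Ifitm3 was higher with all 4 genes, by 1.74, 0.79, 1.53 and 0.92. Without any single mouse but the first Abi3-/-, H2-Ab1 and Ifitm3 were not called with Itgax (adjusted p from 0.0713 to 0.0853 and from 0.0670 to 0.128), and H2-Ab1 was not called with Csf1 without the second Abi3-/- (0.0810) or the first Abi3+/+ mouse (0.0727). Cxcl10, a chemokine that attracts T cells, split the 4 genes. It was lower in cells with Cst7 (log2 fold change -1.22, adjusted p = 0.0262) and higher in cells with Lilrb4a (1.39, adjusted p = 0.00694) and with Csf1 (1.51, adjusted p = 0.00573), with -0.82 and an adjusted p of 0.133 for Itgax (-1.03 and 0.0473 with library size alone, and -1.26 and 0.0200 without the first Abi3+/+ mouse). The call with Cst7 was lost without the first Abi3-/- mouse (adjusted p = 0.0626) or without the first Abi3+/+ mouse (adjusted p = 0.0559).

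Itgb2, the beta chain with which CD11c pairs, did not pass. It had 5331 CPM in cells with Itgax and 5115 CPM in cells without it (log2 fold change 0.06 ± 0.08, adjusted p = 0.627, and -0.14 with library size alone). Of 2 other integrin alpha chains, Itgam, that of CD11b, was lower with Itgax (-0.39 ± 0.07, adjusted p = 0.00893, and 0.0554 without the second Abi3+/+ mouse). Itgam was also lower with Cst7, Lilrb4a and Csf1, with log2 fold changes of -0.44, -0.94 and -0.38. Itga4 passed in none. Csf1r, the receptor of Csf1, was not analysed here. Of 6 cell cycle genes, edgeR called none with Itgax or Lilrb4a, where DESeq2 called 1 and 2 higher (22.3% and 27.4% of all genes tested). Tyms was higher with Cst7 (0.48, adjusted p = 0.0266, and 0.10 and 0.589 with library size alone), and Ube2c was lower with Csf1 (-1.84 ± 0.54, adjusted p = 0.0344), a call lost without the second mouse of either genotype (adjusted p = 0.118 and 0.115). DESeq2 called 1 cell cycle gene higher and 3 lower with Csf1, where it called 43.9% of all genes tested. Of the 6 cytotoxic genes only 2 had enough reads in microglia to be tested, and Ccl5, which was higher with Cst7 (97.3 against 45.0 CPM, adjusted p = 0.0373), was the one that passed. The Ccl5 call was lost with library size alone (adjusted p = 0.0863), and without any single mouse but the first Abi3-/- the calls of Ccl5 (0.0874 to 0.193) and Tyms (0.0609 to 0.108) were lost.

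Among all other genes, the chemokine receptor gene Cxcr4 was in the leading 5 for each of the 4 genes, with 45.7 CPM against 3.93 for Cst7, 43.8 against 8.4 for Itgax, 85.6 against 7.23 for Lilrb4a and 53.1 against 14.8 for Csf1. Il7r, a cytokine receptor gene, was in the leading 5 lower genes of each, with 91.3 CPM against 278 for Cst7 and 18.0 against 232 for Lilrb4a. With Lilrb4a, the macrophage elastase gene Mmp12 had 379 CPM against 7.18, the interleukin 1 receptor antagonist gene Il1rn 329 against 13.3 and the scavenger receptor gene Cd36 38.8 against 2.95. Il1rn was also higher with Itgax (139 against 17.2 CPM, adjusted p = 0.00493), whereas it had 46.5 CPM with Cst7 and 47.5 without it (adjusted p = 0.888). Cd28, Btla and Zbtb16, known from lymphocytes, led by fold with Cst7 but stood at only 7.0, 9.17 and 32.1 CPM, and Gimap5, Irf4 and Alas2 led the lower genes with Lilrb4a from at most 34.7 CPM. The fibronectin gene Fn1 was higher with Cst7 (36.0 against 3.37 CPM), the chemokine gene Ccl2 was lower (623 against 1281 CPM), and Fn1 was also higher with Csf1 (52.0 against 9.84 CPM). Several of these calls rested on single mice. Without the second Abi3+/+ mouse, Cxcr4 had adjusted p = 0.0508 with Cst7 and 0.0507 with Itgax, and Mmp12 and Il7r had 0.0772 and 0.0571 with Lilrb4a. Cxcr4 had 0.133 with Csf1 without the second Abi3-/- mouse and 0.0758 without the first Abi3+/+ mouse. Cd28 was lost without either Abi3+/+ mouse (0.0573 and 0.0727), Btla without the first (0.0930), Zbtb16 without the second (0.133), and Irf4 without any one of the 4 mice (0.0520 to 0.130). Fn1 was not called with Itgax without the first or the second Abi3+/+ mouse (0.0644 and 0.0821). edgeR called no marker of T cells in the 4 fits, DESeq2 called 1 higher and 1 lower of 3 with Itgax (46.0% of all genes tested were called), and of the macrophage or monocyte markers edgeR called 1 higher in each, Fn1 with Cst7, Itgax and Csf1 and Cd44 with Lilrb4a (78.0 against 16.6 CPM, adjusted p = 0.00434).

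Between genotypes, more Trem2-positive microglia of the Abi3-/- mice had Cst7, Itgax or Csf1, although with 2 mice a side an exact permutation test cannot give a two-sided p under 0.333. The share with Cst7 was 41.7% ± 4.14 in Abi3-/- and 26.0% ± 1.86 in Abi3+/+ mice (SD, n = 2 each), a difference of 15.7 points (exact permutation p = 0.333). For Itgax it was 30.7% ± 3.50 against 21.7% ± 7.68, a difference of 8.98 points, and for Csf1 11.5% against 7.03% ± 1.66, a difference of 4.46 points (exact permutation p = 0.333 for each). For Lilrb4a, 12.4% ± 7.10 against 9.28% ± 1.85, the mice overlapped (exact permutation p = 1). The mice did not overlap for 3 of the 4 genes, beside 39.3% of all 351 genes, 23.4% of the 351 higher in Abi3-/-. At 50 or more reads the mice overlapped for Itgax (20.5%, 24.0%, 12.8% and 23.1%). Cells with at least 1 of the 4 genes made up 55.3%, 59.2%, 34.2% and 41.9%, cells with 3 or more 7.48%, 13.6%, 6.4% and 8.21%, and cells with all 4 1.86%, 3.40%, 1.71% and 1.43%. The mice overlapped for 3 or more genes (exact permutation p = 0.667).

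The reads of the cells did not follow these shares. The cells with Cst7 had a median of 122 and 204 Cst7 reads in the Abi3-/- mice against 251 and 350 in the Abi3+/+ mice, and those with Itgax 79 and 70 against 81 and 106. Among 163 genes, medians did not overlap for 23.3%, with 19.6% lower and 3.68% higher in Abi3-/-. For Lilrb4a and Csf1 the mice overlapped. Summed over all Trem2-positive microglia, Cst7 stood at 5088, 9524, 6310 and 6312 CPM, with the Abi3-/- mice on either side of the controls. Its log2 fold change was 0.24 ± 0.38 (SE, adjusted p = 0.931, edgeR's quasi-likelihood test). Itgax, at 1268, 1795, 967 and 1705 CPM, had 0.21 ± 0.40 (adjusted p = 0.931), and Lilrb4a, at 456, 1035, 443 and 666 CPM, had 0.45 ± 0.53 (adjusted p = 0.927). Without the second Abi3-/- mouse, the fold changes of Cst7, Itgax and Lilrb4a reversed to -0.31, -0.08 and -0.28. Those of Cst7 and Itgax also reversed with no cell filter (-0.35 and -0.27), and that of Itgax without the first Abi3+/+ mouse (-0.16). Csf1 was the one of the 4 whose mice did not overlap, at 250, 252, 195 and 124 CPM (0.68 ± 0.26, adjusted p = 0.572), beside 37.2% of 320 genes, 18.1% higher and 19.1% lower in Abi3-/-. In such sums, fewer cells with a gene and less of its RNA per cell cannot be told apart. edgeR called 0 of the 320 genes (0% called), 29 had an unadjusted p under 0.05, and DESeq2 called 8 higher and 2 lower. Without the first Abi3-/- mouse edgeR called 1 higher and 1 lower.

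Both Abi3-/- mice had a lower ratio of co-detection than either Abi3+/+ mouse for 5 of the 6 pairs, all but Lilrb4a with Csf1, beside 14.9% of all pairs of genes lower and 21.9% higher. The expected count is made from the separate shares, which themselves differed between these mice, so the ratio is not independent of them. The share of Lilrb4a cells that also had Cst7 was not lower in the Abi3-/- mice (86.4% and 85.9% against 83.5% and 81.4%). The share of cells over the upper limit of reads and the sizes of some clusters moved with these differences. Of the cells with a read of Trem2 that were kept or over the upper limit of reads, 8.58% and 8.88% in the Abi3-/- and 11.6% and 13.1% in the Abi3+/+ mice were over it and were left out, and in these 1559 cells Cst7 was detected in 96.8%, Itgax in 88.2%, Lilrb4a in 70.0% and Csf1 in 50.2%. With no cell filter, the shares with Cst7 were 43.4%, 49.7%, 33.5% and 36.7%, still without overlap, whereas those with Itgax overlapped (32.8%, 37.8%, 25% and 35.5%). Clusters 1 and 3 held 823 and 234 cells of the first and 693 and 1151 of the second Abi3-/- mouse, and 181 and 145, and 152 and 116, of the Abi3+/+ mice. Clusters 0 and 2, with low shares of the 4 genes, held 122 and 118, 152 and 199, 1301 and 490, and 608 and 934 cells. Clusters 4 and 6, with the highest shares of Cst7 and Lilrb4a among the microglia-like clusters, overlapped between the genotypes, with 7.54%, 17.3%, 8.06% and 11.4%, and 4.61%, 10.1%, 7.19% and 7.15%, of the kept cells of each mouse. Reads of 6 neutrophil markers in Trem2-positive microglia came to 0.379, 2.17, 0.207 and 1.43 per 10000, overlapping between the genotypes, with S100a8 in up to 6.12% of cells in the second Abi3-/- mouse, where the Lilrb4a share was highest, and 2, 0, 3 and 1 of the 6 at 0. The part of these measures in the genotype differences was not tested.

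Cst7 was detected in over 50% of the T cell-like cells of every mouse, and Lilrb4a in fewer. The cluster had 323 cells (97, 72, 73 and 81, median 16781 reads), led by Ccl5, Nkg7 and Trbc2. Cst7 was detected in 59.8%, 58.3%, 58.9% and 53.1% of them, 57.6% over all cells (95% exact binomial interval 52.0 to 63.0, counting error only), against 1 of 53 B cell-like cells (1.89%, median 15287 reads). Lilrb4a was detected in 16.1% of T cell-like cells, Itgax in 4.95% and Csf1 in 2.48%, against 0 of 53 B cell-like cells for each, which allows a share of cells with a read of up to 5.66% (3 of 53 cells, and 6.72% by the upper limit of the 95% exact binomial interval). Per mouse, Lilrb4a was in 23.7%, 18.1%, 16.4% and 4.94%, the last of them below both limits. Csf1, in 1.23% to 3.09%, lay below them in every mouse. T cell-like cells had Itgax in 4.12%, 6.94%, 1.37% and 7.41%, on either side of both limits, which pool the B cell-like cells of all mice and cover counting error only. Leaving out the T cell-like cells with a read of Trem2, C1qa, C1qb or Cx3cr1 left 264 cells, with Cst7 in 55.3% and Lilrb4a in 16.3%. Of the cells, 138 had Cst7 alone of the 4 genes, 33 had Cst7 with Lilrb4a and 114 had none.

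Within the T cell-like cells, Cst7 went with CD8. Of the 221 cells with Cd8a or Cd8b1, 73.2%, 70.2%, 70.9% and 77.1% had Cst7, and of the 48 with Cd4 alone 23.1%, 35.7%, 12.5% and 15.4%, so the groups of cells did not overlap in any mouse. The cells with neither (54) had Cst7 in 25.9%. Their median depths were 17901, 13833 and 11980 reads. Seen from Cst7, 85.5% of the cells with it had Cd8a and 5.91% had Cd4, against 42.3% and 27.0% of the cells without it. The cytotoxic granule gene Nkg7 was in 95.7% against 76.6% and the chemokine gene Ccl5 in 90.9% against 69.3%, while granzyme B (Gzmb) was in 25.3% against 21.9%. On summed reads, edgeR called 0 of 257 genes between T cell-like cells with and without Cst7 (0% called), with 22 at an unadjusted p under 0.05, and DESeq2 called 11 higher and 10 lower. The log2 fold change of Cd4 was -2.67 ± 0.61 (adjusted p = 0.237) and that of Cd8a 0.79 ± 0.18 (adjusted p = 0.237), each in the same direction in 4 of 4 mice. Of the 7 microglia markers edgeR called none, with a median log2 fold change of 2.26, and DESeq2 called 1 higher, against 4.28% of all genes tested.

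Lilrb4a was detected in 23.7% and 18.1% of T cell-like cells of the Abi3-/- mice and in 16.4% and 4.94% of those of the Abi3+/+ mice, a difference of 10.2 points without overlap (exact permutation p = 0.333), beside 29.5% of 325 genes, 22.2% of the 325 higher in Abi3-/-. Csf1 shares did not overlap either (3.09%, 2.78%, 2.74% and 1.23%) but rest on 8 cells. The summed reads of Cst7, at 3288, 3732, 3909 and 5149 CPM, were lower in both Abi3-/- mice, beside 31.6% of 294 genes whose sums did not overlap (16.0% lower), with a log2 fold change of -0.35 ± 0.24 (adjusted p = 0.957, edgeR). Lilrb4a, at 1041, 512, 884 and 143 CPM, overlapped. Without single mice, the log2 fold changes of summed reads ranged from 1.2 to 3.07 for Itgax and from -0.00373 to 1.58 for Csf1. Those of Cst7 and Lilrb4a ranged from -0.54 to -0.16 and from -0.19 to 2.47. No gene was called of 294 (0%), with 13 at an unadjusted p under 0.05, and DESeq2 called 0 higher and 3 lower.

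In the macrophage or monocyte-like cluster, Lilrb4a and Itgax were frequent and Cst7 was not. The cluster had 173 cells (29, 57, 37 and 50, median 34452 reads), led by class II genes, Chil3, Ccr2 and Clec10a. Lilrb4a was detected in 55.2%, 71.9%, 51.4% and 68.0% of them (63.6% over all cells) and Itgax in 48.3%, 40.4%, 45.9% and 38.0% (42.2%), whereas Cst7 was in 6.36% and Csf1 in 4.62%. The Cst7 share was thus below that of Trem2-positive microglia in every mouse, although these cells were deeper. Of the 173 cells, 69 had Lilrb4a alone of the 4 genes, 32 had Itgax alone, 32 had both and 22 had none. The macrophage or monocyte markers were detected in a mean of only 40.1% of the cells. Flt3, a dendritic cell receptor gene, was in 57.5% of the cells with Itgax and 22.0% of those without it. The Itgax share is thus that of the cluster and not of macrophages alone, and whether the cluster mixes cell types was not tested.

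Lilrb4a and Itgax were spread differently over this cluster. In the 91 cells with a read of Trem2, Lilrb4a was detected in 85.7%, 86.2%, 73.3% and 72.7%, and in the 82 cells without it in 26.7%, 57.1%, 36.4% and 58.8%. Itgax went the other way, with 21.4%, 20.7%, 13.3% and 27.3% of the cells with Trem2 and 73.3%, 60.7%, 68.2% and 58.8% of those without it. Median depths were 33526 and 37025 reads. Of the cells with Itgax, 57.5% had Flt3, a dendritic cell receptor gene, and 6.85% had F13a1, a monocyte and macrophage gene, against 22.0% and 49.0% of the cells without Itgax. Among other genes of macrophages or monocytes, Chil3 (6.85% against 25%) was less frequent with Itgax in all 4 mice, Cd163 (16.4% against 32%) and Fn1 (8.22% against 33%) in 3 of 4, and Clec10a (49.3% against 38%) was more frequent in all 4. Ccr2 (65.8% against 53%) was more frequent in 2 mice and less frequent in 2, and these shares were not tested. Of the cells with Lilrb4a, 25.5% had Flt3 and 42.7% had F13a1, against 57.1% and 11.1%. Of the other genes, Chil3 (21.8% against 9.52%) was more frequent with Lilrb4a in all 4 mice, Fn1 (28.2% against 12.7%) and Ccr2 (60.9% against 54%) in 3 of 4 and Cd163 (26.4% against 23.8%) in 2 of 4, and Clec10a (38.2% against 50.8%) was less frequent in all 4, and these were not tested either. Between cells with and without Itgax, edgeR called 2 of 238 genes (0.840%), 1 higher and 1 lower (0.420% each). H2-DMb2, a class II peptide-loading gene, was higher (4437 against 260 CPM, log2 fold change 4.44 ± 0.44, adjusted p = 0.0124), and Lyz2 was lower (56107 against 187678 CPM, -1.70 ± 0.14, adjusted p = 0.0107), each in 4 of 4 mice. The Lyz2 call was lost without any single mouse (adjusted p from 0.0709 to 0.132), and that of H2-DMb2 was lost without any but the first Abi3-/- mouse (0.0968 to 0.132). Of the 238 genes, 41 had an unadjusted p under 0.05, and DESeq2 called 25 higher and 26 lower. Between cells with and without Lilrb4a, 0 of 233 genes were called (0%), 37 had an unadjusted p under 0.05 and DESeq2 called 14 in each direction. For Flt3 the log2 fold change there was -2.03 ± 0.33 (adjusted p = 0.116).

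By genotype, Csf1 was detected in 10.3%, 5.26%, 2.7% and 2.0% of macrophage or monocyte-like cells, without overlap but from 8 cells, beside 32.8% of 305 genes, 20.0% of the 305 higher in Abi3-/-. For its summed reads (161, 50.6, 6.63 and 31.3 CPM) edgeR gave a log2 fold change of 2.47 ± 1.48 (adjusted p = 0.958). For Cst7, Itgax and Lilrb4a the log2 fold changes were -0.10, -0.36 and -0.33. Leaving out single mice moved that of Csf1 between 1.31 and 3.98 and that of Lilrb4a between -0.90 and -0.01. Those of Cst7 and Itgax changed direction, with ranges of -1.12 to 0.42 and -1.0 to 0.85. No gene was called of 270 (0%), with 14 at an unadjusted p under 0.05, and DESeq2 called 6 in each direction.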

How the data were processed

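The deposited tables hold counts of reads for each gene in each cell. The authors made them with default settings of the BD Rhapsody Targeted Analysis Pipeline, whose distribution-based correction removes likely errors (mm10 per the labels, version not given in the sources used here). They were neither normalized nor filtered by cell. The 4 genes, the gene lists and the tests were chosen with earlier results of these data known. Cells with fewer than 40 genes or over the study's upper limit of reads were left out. Clusters came from Seurat 5.3.0 in R 4.3.3 (log-normalization to 10000 reads, 393 genes without the 4 members, 10 principal components, Louvain at resolution 0.8), and no doublet caller was run. The rule that named clusters was set after they were seen. A cluster was named for T cells, B cells or neutrophils where the markers averaged over 50% of cells, for macrophages or monocytes over 30%, and for microglia over 75% with no class II gene leading. This left 501 cells in 2 unnamed clusters. A member was detected in a cell with at least 1 read.

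Sums of reads over the cells of a mouse were compared by edgeR 4.0.16 (quasi-likelihood, default low-count filter, TMM, adjusted p threshold 0.05), with the mouse as a block for cells with against without a gene. SE is the fold change divided by the root of F. DESeq2 1.42.0, library size alone, no low-count filter, no cell filter, 10 or 50 reads for detection, thinning to 10000 reads, a clustering with all genes, all kept cells with Trem2, quintiles by genes, and leaving out each mouse were alternatives. The script was tested on simulated data. Shares between genotypes were compared by exact permutation over mice (scipy 1.17.1, two-sided). Between genotypes, p-values measure the spread between mice, each also a library. For cells with against without a gene, they measure the spread over mice of the difference within a mouse. Beside the 4 genes and the genes of the lists, the text names the 5 genes most correlated with each member, up to 5 genes in each direction with the largest called folds and the same direction in 4 mice, and genes of T cells and macrophages that were chosen after their values were seen. Promoter windows are those of RefSeq on GRCm38.p6, with an entry for 3 of the 4 genes. Some genes of the lists are counted but not reported here by name.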

Additional observations from a re-analysis of the deposited data

How the results depend on the processing

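Since values are reads, cells that were shallow in molecules cannot be told apart from cells without a gene, and thinning reads does not remove this. With no cell filter, Lilrb4a was detected in 16.9% and Csf1 in 13.5% of Trem2-positive microglia, co-detection ratios were 1.27 (Cst7 and Lilrb4a), 1.18 (Cst7 and Csf1), 1.24 (Itgax and Lilrb4a), 1.21 (Itgax and Csf1) and 1.37 (Lilrb4a and Csf1), and the leading order held 57.8% of cells with 1 to 3 genes. The genotype fold changes of Cst7 and Itgax in summed reads then reversed to -0.35 and -0.27 (log2). Detection at 50 or more reads, added after seeing the data, gave a Csf1 share of 3.61%, and 63.1% and 57.0% for the orders Cst7, Itgax, Lilrb4a, Csf1 and Cst7, Itgax, Csf1, Lilrb4a. Quintiles by genes detected, also added, gave ratios of 1.78, 2.41, 1.93, 2.37, 1.98 and 3.05 for the 6 pairs (Cst7 with Itgax, Lilrb4a and Csf1, Itgax with Lilrb4a and Csf1, Lilrb4a with Csf1). Thinning gave Cst7 in 63.6% of T cell-like cells. The cause of these shifts was not tested. DESeq2 called 8 higher and 2 lower genes between genotypes in microglia, 3 lower in T cell-like and 6 and 6 in macrophage or monocyte-like cells, and, by member, 11 and 10 (Cst7, T cell-like), 25 and 26 (Itgax, macrophage or monocyte-like) and 14 and 14 (Lilrb4a, the same cells). With library size alone, 122, 94 and 78 genes were lower with Cst7, Itgax and Csf1. The leading order was the same in all 7 settings of detection and cells, that of the report included. Of the values of counts, shares, ratios and orders under these alternatives, 33 moved and 193 did not. A share, ratio or order was held as not moved within the SD over mice, and a genotype difference where it kept its direction. A count of called genes was held as not moved within a fixed fold of the main count, so such counts could still differ. Of the genes named with a member, Ube2c lost its call with Csf1 in thinned cells (adjusted p = 0.0842), Tyms and Ccl5 with Cst7 and Trem2 with Csf1 lost theirs with library size alone, and Cxcl10 with Itgax passed there (values in the report). Fold changes that were not called reversed for Itgb2 with Itgax with library size alone (-0.14) and for Il1rn with Cst7 in thinned cells (0.33) and without single mice (-1.28 to 0.81).

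Replicate numbers are shared only as numbers, and same-numbered mice deviated together with r = 0.373 over 320 genes, which 2 pairs cannot settle. With the replicate block, edgeR called 0 genes between genotypes in microglia and in T cell-like cells and 1 higher gene in macrophage or monocyte-like cells. Leaving out single mice gave Trem2-positive microglia shares of 30.3% to 36.9% (Cst7), 23.9% to 29.5% (Itgax), 8.65% to 12.0% (Lilrb4a) and 8.52% to 10.4% (Csf1), and genotype differences of 12.8 to 18.6, 3.55 to 14.4, -1.91 to 8.14 and 3.29 to 5.63 points. The Lilrb4a difference thus reversed without the second Abi3-/- mouse. Genes called numbered 0 to 1 in each direction between genotypes in microglia, 0 to 4 higher and 0 to 3 lower in T cell-like cells, 31 to 66 lower with Cst7, 21 to 54 higher and 14 to 51 lower with Itgax, and 0 to 1 higher and 0 lower with Itgax in macrophage or monocyte-like cells. Log2 fold changes of summed reads ranged from -0.31 to 0.59 for Cst7, -0.16 to 0.71 for Itgax and -0.28 to 0.89 for Lilrb4a and 0.41 to 1.01 for Csf1 in microglia, from -0.54 to -0.16 for Cst7, 1.2 to 3.07 for Itgax, -0.19 to 2.47 for Lilrb4a and -0.00373 to 1.58 for Csf1 in T cell-like cells, and from -1.12 to 0.42 for Cst7 -1.0 to 0.85 for Itgax, -0.90 to -0.01 for Lilrb4a and 1.31 to 3.98 for Csf1 in macrophage or monocyte-like cells. Without the second Abi3-/- mouse the log2 fold changes of Cst7, Itgax and Lilrb4a in summed reads were -0.31, -0.08 and -0.28, and without the first Abi3+/+ mouse that of Itgax was -0.16. Lilrb4a in T cell-like cells had -0.01 without the first Abi3-/- and -0.19 without the second Abi3+/+ mouse. In macrophage or monocyte-like cells Cst7 had 0.42 without the first Abi3-/- mouse, and Itgax had 0.01 without the second Abi3-/- and 0.85 without the first Abi3+/+ mouse.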

Other observations

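The 4 genes were also detected in cells outside the classes above. Neutrophil-like cells (114, of which 84 came from the second Abi3-/- mouse) had Lilrb4a in 84.2%, Itgax in 14.9%, Csf1 in 14.9% and Cst7 in 1.75% of cells, and 74 of them had Lilrb4a alone. The unnamed cluster led by Cd74 and other class II genes had 274 cells (175, 35, 55 and 9 in the 4 mice, median 27060 reads). Microglia markers had reads in a mean of 96.8% of its cells, but the naming rule left it out of the Trem2-positive microglia. These left-out cells thus came mostly from the first Abi3-/- mouse. The cluster had Cst7 in 51.5%, Itgax in 40.9%, Csf1 in 15.0% and Lilrb4a in 8.76%. In the unnamed cluster led by F5 (227 cells, median 12939 reads) the shares were 19.8%, 8.37%, 12.8% and 7.93% in the same order. Cells with a read of Trem2 but fewer than 40 genes (1220) had Cst7 in 33.4%, Itgax in 9.02%, Lilrb4a in 4.18% and Csf1 in 1.97% of cells.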
